A study of Mus musculus with 8 samples.

Results

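Prune2, Vti1a, Cdk17 and Ide are 4 mouse genes with strong RBM45 CLIP sites inside 1 intron, close together except in Ide (2873 nt apart). They were named from earlier results on the same peak lists, out of 15994 genes with a peak in both replicates. Their members are the distinct peaks of WT CLIP whose midpoint lies in the body of one of these genes on its strand (mm10, GENCODE M21). These were 738 of 384874 genic peaks in replicate 1, 602 of 341642 in replicate 2, and 65 of 16294 genic sites in the deposited list of peaks shared by both. The genes were chosen by the folds of these same peaks, so the counts and folds below are a description of that choice and carry no test.

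The cells were mHippoE-2, a transformed mouse hippocampal neuronal line (strain Crl:CFW(SW)-024, genotype WT), into which a FLAG- and HA-tagged mouse RBM45 had been brought by lentivirus. RNA was taken with an antibody against HA by iCLIP, in which UV light crosslinks a protein to its RNA before it is pulled down. There were 8 libraries, 2 in each of 4 groups: Mettl3 knockout CLIP, Mettl3 knockout size-matched input, WT CLIP and WT size-matched input. The results here rest on the 2 WT CLIP libraries, and since the protein was expressed from a transgene they describe the tagged RBM45 and not the endogenous one.

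RBM45 binds RNA through RNA recognition motifs, was first described in the developing brain and is found mainly in the nucleus. Introns are transcribed with the gene and cut out of the pre-mRNA in the nucleus, so an intronic peak can come from unspliced RNA, from an excised intron or from an exon of another transcript that lies there. A peak reports where reads of a CLIP library stand above a background, not how much of the RNA is bound. Prune2 encodes a large protein with a BCH domain, Vti1a a SNARE of vesicle traffic at the trans-Golgi network and endosomes, Cdk17 a kinase of the PCTAIRE family and Ide the insulin-degrading enzyme, a zinc metalloprotease that also cleaves amyloid beta.

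Replicate 1 had 387749 distinct peaks and replicate 2 had 344700. The median width was 30 nt in each, and the median fold over background, as the authors' peak caller gave it, was 1.93 and 1.92. No read total could be tied to either library, and their depth is therefore unknown. The labels do not state whether the pair of replicates came from separate cultures. On the strand opposite to the 4 genes there were 0 peaks in Prune2, Vti1a and Ide. Cdk17 had 1 such peak in replicate 1 and 3 in replicate 2, all inside Elk3, a gene of the other strand. How strand was given to peaks is not stated in the sources used here and may follow the annotation. Of the lists of cell type markers, neuronal genes carried a peak in 10 of 11 cases in replicate 1 and in 9 of 11 in replicate 2, astrocyte genes in 4 of 5 and 4 of 5, oligodendrocyte genes in 4 of 5 and 4 of 5, microglial genes in 5 of 5 and 4 of 5, and endothelial genes in 3 of 4 and 4 of 4. Peaks on a gene body do not measure its level, and these lists therefore do not check the cell type.

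A shared site is called strong here when its fold was at least 10 in both replicates, and a run is a set of at least 2 strong intronic sites of a gene with gaps of no more than 5 kb. Of all 14544 shared sites in an intron, 1.44% were strong. Of the shared sites of the 4 genes, 18 of 65 were strong, and all 18 stood in 4 runs, 1 in each gene. Peaks with a fold of at least 10 were 6 in Prune2, 4 in Vti1a, 7 in Cdk17 and 2 in Ide in replicate 1, against 0.137% of all its genic peaks, and 8, 4, 5 and 2 in replicate 2, against 0.0948%. Runs were found in 23 genes, or 0.144% of the 15994. Prune2 held the most sites in a run, 8, followed by Vti1a and Cdk17 with 4 each and Ide with 2. Nothing is read from these shares, because strong neighbouring sites are what the genes were named for.

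**Figure D1:**
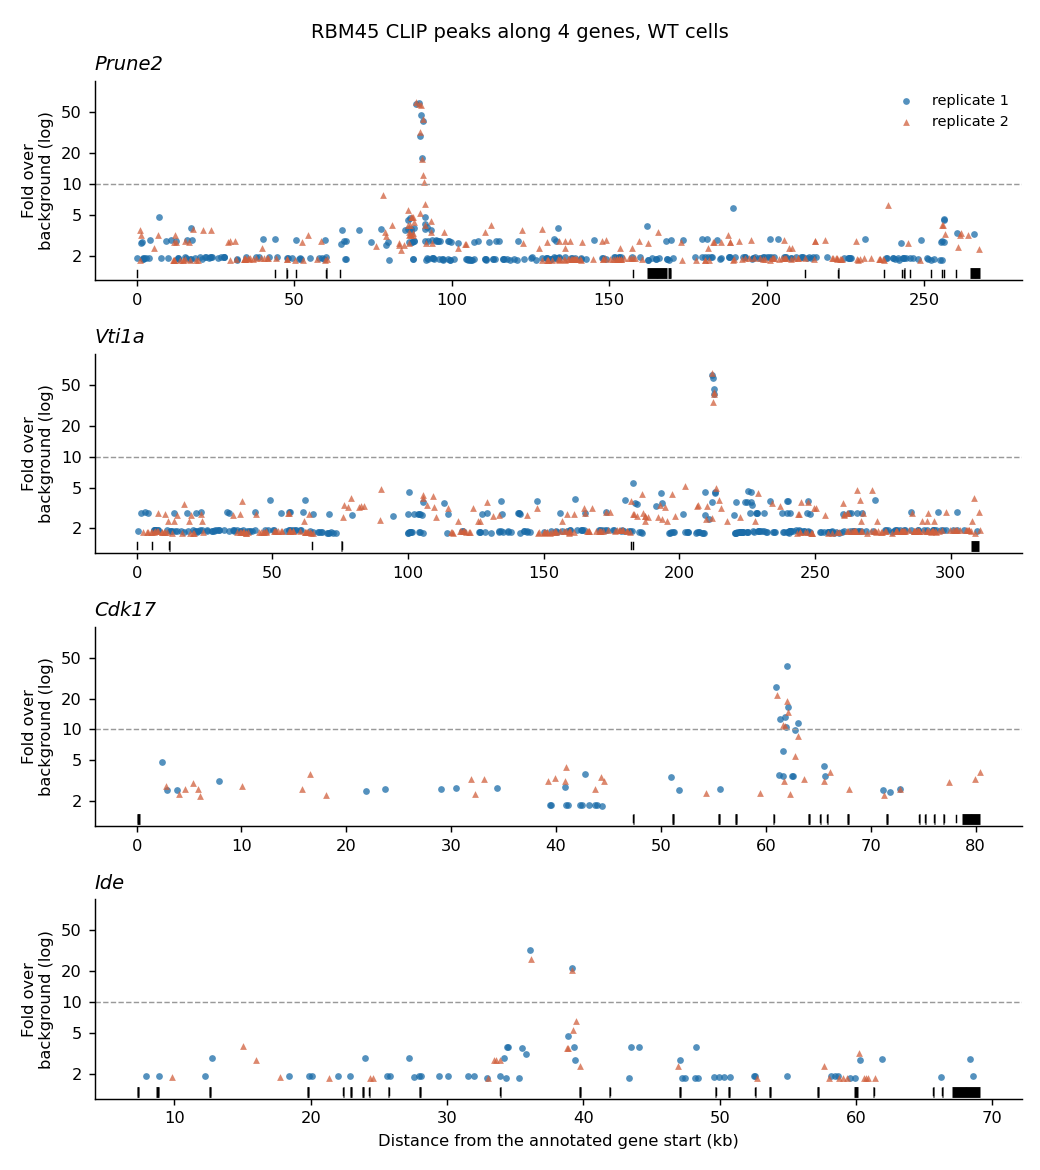
Fold over background (log axis) of each WT CLIP peak against its distance from the annotated gene start in kb, for Prune2, Vti1a, Cdk17 and Ide from top to bottom. Circles are replicate 1, triangles replicate 2, black bars the exons of the principal transcript, and the dashed line a fold of 10. In each gene the points above the line stand in 1 narrow place, and the remaining points lie along the whole gene below it.

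Prune2 (chromosome 19, 16956118 to 17223932, plus strand, 267.8 kb) had its run in intron 6 of 19, the longest intron of the gene at 92.9 kb. The run reached from 17044634 to 17047412, a span of 2779 nt that began 23980 nt after the 5' splice site and ended 66174 nt before the 3' splice site. It took 2.99% of the intron and 1.04% of the gene. Gaps between neighbouring sites were 26 to 133 nt, so that the replicate 2 peaks covered 81.6% of the span.

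The strongest Prune2 sites were the outermost at the 5' side. The first (17044634 to 17045199 in replicate 2) was 625 and 566 nt wide in replicates 1 and 2, with folds of 59.5 and 61.9. The second (17045283 to 17045899) was 629 and 617 nt wide and had folds of 60.9 and 59.7. Both replicates ended the second at the same base. The third (17045982 to 17046053) had folds of 29.0 in replicate 1 and 31.8 in replicate 2. The fourth (17046183 to 17046572) had 46.9 and 58.8 and also ended at the same base in both replicates. The fifth, a narrow site of 58 and 49 nt (17046601 to 17046649), had 17.9 and 17.4.

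At the 3' end of the Prune2 run the replicates cut the same stretch differently. Replicate 1 had a single peak of 610 nt (17046776 to 17047385) with a fold of 40.4. Replicate 2 had 3 peaks there, of 281, 56 and 238 nt, with folds of 42.8, 12.2 and 10.3. The last of these, at 10.3, was the strong site of the 4 genes closest to the limit of 10. The 8 strong sites of Prune2 are thus 6 peaks of replicate 1, and the last pair, with the lowest folds of the run, are peaks that replicate 1 joined to their stronger neighbour.

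Around the run, Prune2 held a fringe of weaker peaks. In the 5 kb on its 5' side there were 14 peaks in replicate 1 and 16 in replicate 2, with 6 shared sites and highest folds of 4.62 and 5.56. In the 5 kb on its 3' side there were 20 and 6 peaks, with 3 shared sites and highest folds of 4.73 and 6.35. The density over the whole gene was 1.09 peaks per kb in replicate 1 and 0.866 in replicate 2. The 5' side had 2.8 and 3.2 per kb, and the 3' side 4.0 and 1.2. One more shared site, a 32 nt peak of replicate 2 with a fold of 5.22 (17045927 to 17045958), lay inside the run and was paired with the same replicate 1 peak as the third strong site.

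The remainder of Prune2 carried many weak peaks. Of 29 shared sites, 25 stood in intron 6, 3 in other introns and 1 in an exon. Outside the span of the run there were 286 peaks in replicate 1 and 223 in replicate 2, with median folds of 1.92 and 1.90 and highest folds of 5.80 and 7.71. Neither of these highest peaks, in intron 9 at 17145545 and in intron 6 at 17034281, was in the shared list. The same held for a peak of replicate 2 with a fold of 6.17 in intron 12 (17194722 to 17194776). Intron 6 also holds an exon of the non-coding transcript Prune2-205 (17054790 to 17055782) and, on the other strand, the annotated RNAs Gm27970 and Gm27796. None of these overlaps the run.

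Exons of Prune2 held 18 peaks in replicate 1 and 6 in replicate 2, with folds of at most 3.85 and 3.39. The shared exonic site was in exon 8, in coding sequence, with folds of 1.82 in replicate 1 and 2.63 in replicate 2. The replicate 1 value equals the lowest fold of any replicate 1 peak of the gene outside the run, so this is a weak site. By the wider (comprehensive) GENCODE M21 set, a shared site of Vti1a and a strong site of Ide, both described below, are exonic too. By the basic set used here, the site in exon 8 was the only exonic one among the 65 shared sites of the 4 genes. The share among all genic shared sites was 10.8%. Only this site in exon 8 is in coding sequence of the principal transcripts. Its sequence is shown because it is the coding site of these genes that both libraries called (GENCODE M21, GRCm38, chr19:17118399-17118443, plus strand, 5' to 3'), with the 15 bases that lie in both peaks in capitals.
Prune2 exon 8: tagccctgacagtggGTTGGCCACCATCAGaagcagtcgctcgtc

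Vti1a (chromosome 19, 55316295 to 55627309, plus strand, 311.0 kb) had the most compact run, 4 sites within 789 nt (55528445 to 55529233). It stood in intron 7, the last of 7 and the longest at 124.5 kb. The run began 29140 nt after the 5' splice site, ended 94583 nt before the 3' splice site and took 0.634% of the intron. Gaps were 38 to 124 nt. Its first site (55528445 to 55528563) had folds of 62.4 in replicate 1 and 65.2 in replicate 2 and ended at the same base in both. By the lower of its folds it was second of 16399 shared sites.

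The other three sites of Vti1a had lower folds than the first in both replicates. The second (55528688 to 55528877) had folds of 58.0 in replicate 1 and 34.1 in replicate 2. The third (55528916 to 55529040) had 45.8 and 40.5, and the fourth (55529141 to 55529233) had 40.5 and 42.3. Widths ran from 92 to 195 nt in replicate 1 and from 93 to 190 nt in replicate 2. No site of this run was below a fold of 34.1 in either library, whereas the runs of Prune2 and Cdk17 each held sites near 10.

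The Vti1a run stood apart from the gene's other shared sites, though not from its unshared peaks. The nearest shared site was 10188 nt away on the 5' side and 47877 nt away on the 3' side. In the 5 kb on the 5' and 3' sides there were 8 and 2 peaks in replicate 1 and 3 and 4 in replicate 2. Of these 0 were shared, where Prune2 had 9 shared. Their highest folds were 4.50 and 4.48 in replicate 1 and 3.31 and 4.98 in replicate 2. The nearest of them stood 76 and 24 nt from the run in replicate 1 and 48 and 573 nt in replicate 2. The 15 shared sites outside the run had lower folds of 1.82 to 3.63, with a median of 1.88. They were spread over introns 1, 2, 3, 5 and 7, 10 of them outside intron 7. The highest fold outside the run was 5.54 in replicate 1, in intron 6 (55499110 to 55499157), not shared, and 5.23 in replicate 2, in intron 7 (55518227 to 55518256), shared with a fold of 1.87.

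By the basic gene set, exonic peaks of Vti1a were 1 in replicate 1 and 8 in replicate 2, of which 0 were shared. By the comprehensive set, a shared site in intron 3 (55330072 to 55330101) lies in exon 4 of the non-coding transcript Vti1a-204. Its folds were 2.81 in replicate 1 and 2.38 in replicate 2. Among the 8 exonic peaks of replicate 2, a pair lay in the alternative last exon of the transcript Vti1a-206 (55576474 to 55577001). This exon sits in intron 7, and the folds were 3.51 and 2.72. A shared intronic site with folds of 1.87 and 2.80 followed that exon (55577111 to 55577168). The strongest exonic peak, with a fold of 3.97, was in the 3' UTR (55624763 to 55624794).

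Cdk17 (chromosome 10, 93160875 to 93267071, plus strand, 106.2 kb) had its run in a short intron, intron 6 of 16, which is 3292 nt long and 3.1% of the gene. The run began 35 nt after the 5' splice site and reached from 93221679 to 93223044. Its 1366 nt took 41.5% of the intron. Intron 6 held 13 peaks in replicate 1 and 10 in replicate 2, or 3.95 and 3.04 per kb, against 0.395 and 0.377 per kb over the whole gene. Of the 10 shared sites of Cdk17, 8 were in this intron.

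The first strong site of Cdk17, next to the splice site (93221679 to 93222219), was 407 nt wide in replicate 1 and 541 nt in replicate 2, with folds of 25.8 and 21.4. Both replicates began it at the same base. The second (93222611 to 93222807) had folds of 13.3 and 10.7. The third (93222838 to 93222945) differed most between the libraries, with 41.3 in replicate 1 and 19.1 in replicate 2. The fourth (93222988 to 93223044) had the same first and last base in both, with folds of 16.7 and 14.8. All 4 were higher in replicate 1, by 1.13 to 2.16 times. Within the span of the run, replicate 1 had 6 peaks with a fold of at least 10. Of these, 4 belong to the strong sites and the others were not in the shared list.

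Further sites of Cdk17 in this intron fell short of the limit in 1 library or in both. A site after the first (93222481 to 93222520) had folds of 6.21 in replicate 1 and 11.01 in replicate 2. Another (93223865 to 93224077) had 11.5 and 8.56, the site of the 4 genes closest below the limit. One more (93223609 to 93223652) was below it in both, with 9.77 and 5.54. With these, sites of high fold reached to 858 nt from the 3' splice site of the intron. Outside intron 6 the only shared sites were in intron 1 (93201678 to 93201707, folds 2.76 and 3.18) and in intron 8 (93226396 to 93226425, folds 4.42 and 3.18). Exonic peaks were 0 in replicate 1 and 2 in replicate 2, both in the 3' UTR, with folds of 3.29 and 3.88.

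**Figure D2:**
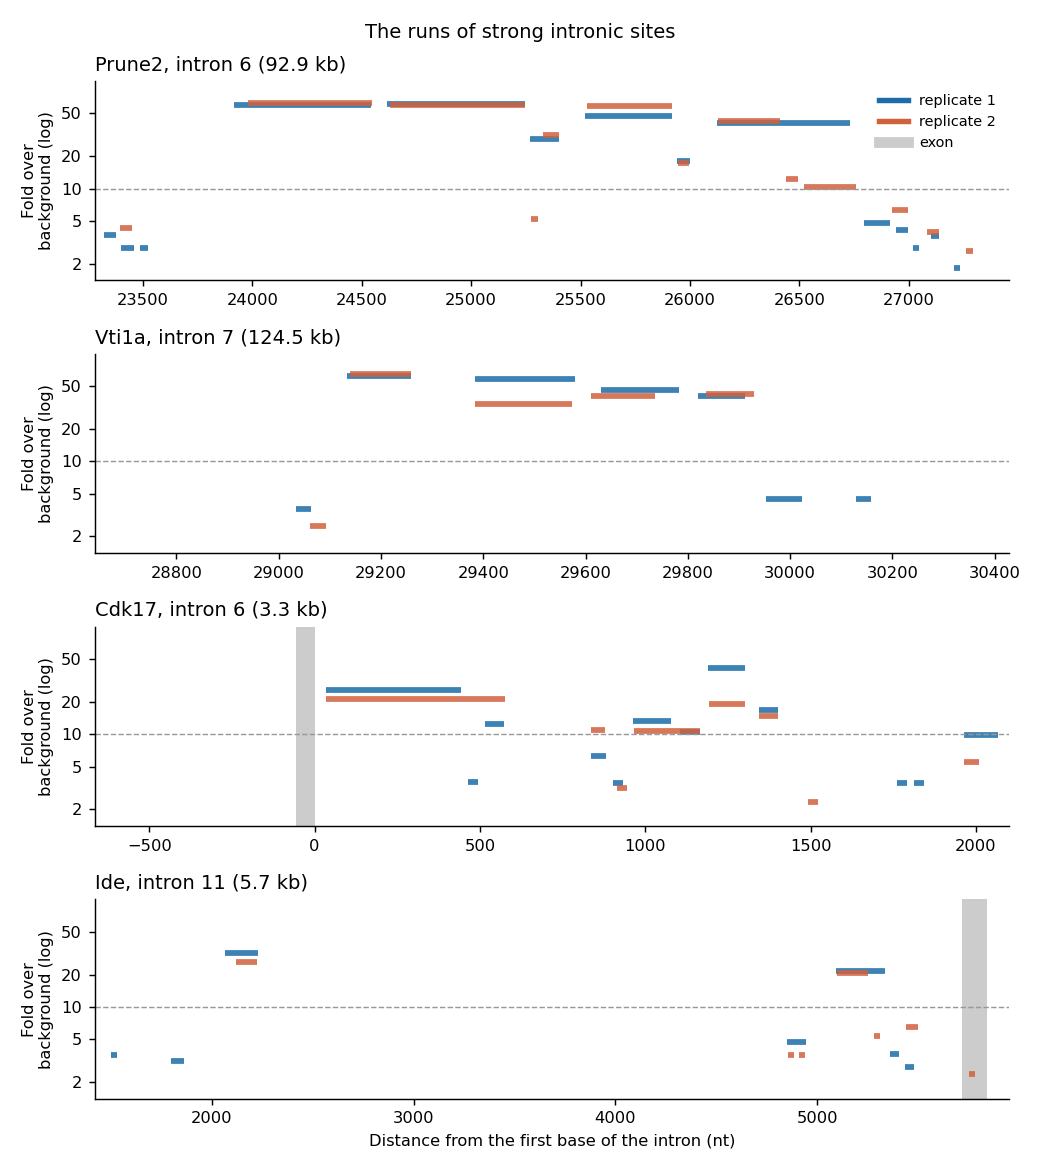
The 4 runs at close range: each bar is a peak, drawn over its width in nt from the first base of the intron and at its fold over background (log axis). Blue bars are replicate 1, orange bars replicate 2, grey bands exons, and the dashed line a fold of 10. The Prune2 and Vti1a runs stand deep in their introns, the Cdk17 run starts 35 nt after an exon, and the strong sites of Ide lie 2873 nt apart.

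Ide (chromosome 19, 37268743 to 37337852, minus strand, 69.1 kb) had its 2 strong sites in intron 11 of 23, which is 5719 nt long. They count as a run only because the gap between them, 2873 nt, is under 5 kb. The first in the direction of transcription (37301670 to 37301775) lay 2118 nt after the 5' splice site, with folds of 31.9 in replicate 1 and 26.2 in replicate 2. The second (37298641 to 37298796) lay 466 nt before the 3' splice site, with folds of 21.5 and 20.8. The replicate 2 peaks covered 8.36% of the span, against 66.1% to 81.6% in the other runs.

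Weaker shared sites of Ide gathered around the second strong site. Of 7 shared sites, 6 were in intron 11. Beside the second strong site, 4 weaker ones lay within the last kilobase of the intron, between 37298395 and 37299038, with lower folds of 2.77 to 5.41. Replicate 1 joined the one at 37298580 to 37298611 to its peak of the second strong site (37298555 to 37298801). Those starting at 37298956 and 37299009 were paired with a single replicate 1 peak (37298951 to 37299043, fold 4.72). The number of weaker sites thus depends on how replicate 2 was cut. The remaining one spanned the 3' splice site of intron 10 (37303981 to 37304031) and had folds of 1.92 and 2.76. Ide had 60 peaks in replicate 1 and 30 in replicate 2. Of its exonic peaks, 9 in replicate 1 and 1 in replicate 2, none was shared, and the highest fold was 2.83, in the 3' UTR.

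The first strong site of Ide was the only strong site of the 4 genes whose sequence could be read, because a non-coding transcript covers it. This transcript, Ide-203, has a last exon of 2016 nt inside intron 11 (37301663 to 37303678), and the site stands at the exon's 3' end, with 2 bases of the transcript after it. By this wider annotation the site is exonic. It is shown from the GENCODE M21 transcript (GRCm38, chr19:37301665-37301829, minus strand, 5' to 3' in the direction of transcription) over the 165 bases of the replicate 1 peak. Capitals mark the 106 bases that are also in the replicate 2 peak.
Ide intron 11: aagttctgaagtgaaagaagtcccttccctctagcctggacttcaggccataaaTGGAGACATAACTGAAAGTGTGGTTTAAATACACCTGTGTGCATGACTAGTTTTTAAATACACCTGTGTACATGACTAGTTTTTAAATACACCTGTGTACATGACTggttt

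The part called in both replicates is mostly a tandem repeat. From base 78 of the site, 88 bases matched themselves at a shift of 29, in 57 of 59 positions compared. This gives 3 full copies of a 29 nt unit, each with a GAC, shown in capitals, in the direction of transcription.
Copy at chr19:37301724-37301752: tttaaatacacctgtgtgcatGACtagtt
Copy at chr19:37301695-37301723: tttaaatacacctgtgtacatGACtagtt
Copy at chr19:37301666-37301694: tttaaatacacctgtgtacatGACtggtt
Counted from 1 at the 5' end of the unit, the second copy differs from the first by G18A and the third by G18A and A26G. The longest stretch present at least 2 times in the site was 36 nt, and 0.37% of 41866 consecutive windows of 165 nt along chromosome 19 transcripts held a repeat that long. The tract was followed to the end of the site, 2 bases before the end of the transcript, and sequence beyond the site was not used here.

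Motifs were counted in this site on the RNA strand, with overlapping matches each counted and GAC also counted within GGACT. It held 5 GAC, and 9.35% of the chromosome 19 windows held as many. GGACT, the most common form of the m6A consensus, stood there 1 time, TTTTT 2 times and TGTGT 3 times. At least 1 GGACT was in 16.5% of the chromosome 19 windows and 8.33% of the 12 windows of the same exon. At least 1 TTTTT was in 16.4% and 58.3%, and at least 1 TGTGT in 20.2% and 41.7%. The last of the 12 exon windows overlaps the site and holds matches of these 3 motifs that belong to it. No other exon window held GGACT, so the exon shares include the site itself and are not a separate background. Of the 5 GAC, 3 belong to the copies of the repeat, as do all 3 TGTGT. The 2 TTTTT, at bases 105 and 134 of the site, span the joins between copies. The counts of GAC, TGTGT and TTTTT are therefore not independent of the repeat. GC content was 38.8%, against a median of 50.3% in the chromosome 19 windows and 41.5% in those of the same exon. Since the site lies at a transcript end, the last 165 nt of each chromosome 19 transcript were also read. Their median GC content was 46.1%, and 14.7% held GGACT, 24.9% TTTTT and 24.5% TGTGT. A match is a description of the letters and does not show a binding site.

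Edges and folds of the 18 strong sites were compared between the replicates. A replicate 1 peak paired with several sites was counted once for each. Of their 36 edges 7 were at the same base and 20 within 10 nt, against 33 and 123 of 382 edges of the 191 strong intronic sites of other genes. The median width of the 18 strong sites was 180 nt in replicate 1 and 140.5 nt in replicate 2. It was 248 and 156 nt in the strong intronic sites of other genes, and 30 nt in each replicate for their intronic shared sites at any fold. Median folds were 40.4 and 29.0 in the 18 sites, against 19.2 and 14.5 in the other strong sites. Across all shared sites of a gene, log2 folds of the replicates had a Pearson correlation of 0.917 in Prune2 (29 sites), 0.959 in Vti1a (19), 0.91 in Cdk17 (10) and 0.79 in Ide (7). Sites of a gene share library and transcript, and the strong sites are among them. Spearman's correlation was 0.876, 0.418, 0.894 and 0.746 in the same order of genes.

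**Figure D3:**
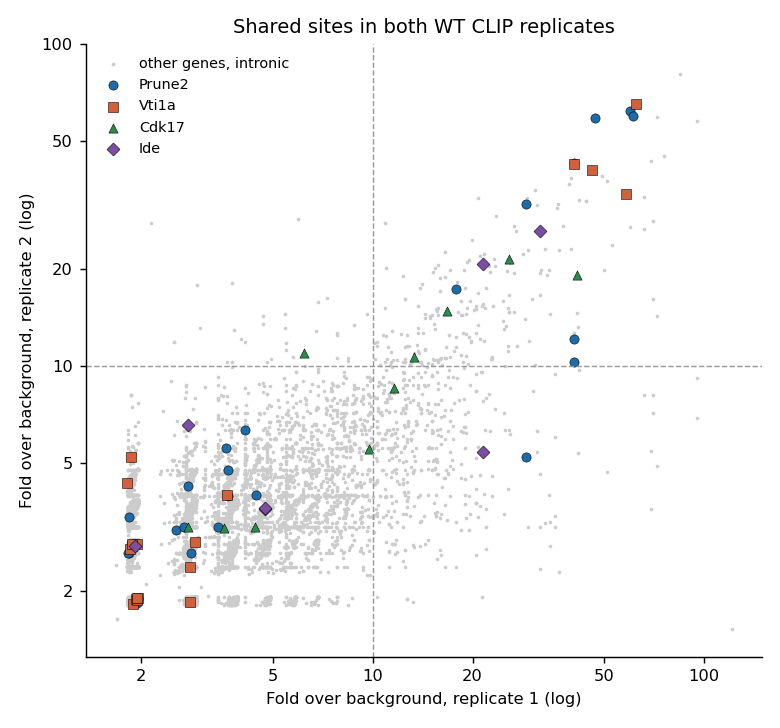
Fold over background of each shared site in replicate 1 (horizontal, log axis) and replicate 2 (vertical, log axis). Coloured symbols are the shared sites of Prune2, Vti1a, Cdk17 and Ide, grey points the intronic shared sites of other genes, and dashed lines a fold of 10. The upper right corner holds the 18 strong sites of the 4 genes, and their other sites lie below a fold of 10 in at least 1 replicate.

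The share of peaks found in both replicates was highest in Cdk17 and lowest in Vti1a, by either replicate, when the runs were counted. In Cdk17 25.0% of replicate 2 peaks were in the shared list (95% Wilson interval 14.2 to 40.2, 40 peaks), in Ide 23.3% (11.8 to 40.9, 30 peaks), in Prune2 12.5% (8.85 to 17.4, 232 peaks) and in Vti1a 6.33% (4.09 to 9.68, 300 peaks), against 4.77% of all genic replicate 2 peaks. Of replicate 1 peaks the share was 23.8% in Cdk17, 8.33% in Ide, 8.9% in Prune2 and 5.52% in Vti1a, against 4.14% of all. Outside the runs the replicate 2 shares were 11.8% in Cdk17 (4.67 to 26.6), 11.5% in Ide (4.0 to 29.0), 8.97% in Prune2 (5.88 to 13.4) and 5.07% in Vti1a (3.09 to 8.19). The replicate 1 shares outside the runs were 12.1% in Cdk17 (4.82 to 27.3), 3.51% in Ide (0.968 to 11.9), 6.99% in Prune2 (4.57 to 10.6) and 4.41% in Vti1a (2.69 to 7.15). Of the 20 shared replicate 2 peaks behind the Prune2 value, 9 lay within 5 kb of the run. In Cdk17 3 of 4 such peaks lay within 5 kb, all on the 3' side. Ide had 3 such peaks, 1 within 5 kb on the 5' side and 2 within 5 kb on the 3' side. In Vti1a 0 of 15 did. The Cdk17 and Ide shares outside the runs thus come mainly from peaks close to the runs. Intervals cover counting error only, and peaks of 1 gene are not independent.

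Of the genes without membership, the runs most like these by number of sites were in Atxn2, Gm47283, Fbn1 and Dap. Atxn2, which encodes the RNA-binding protein ataxin 2, had 4 strong sites within 2001 nt (chromosome 5, 121735557 to 121737557), with lower folds of 10.3 to 19.8. Gm47283, a predicted gene on the Y chromosome, had 3 within 1536 nt, the fibrillin gene Fbn1 3 within 1198 nt and Dap, a gene named for a death-associated protein, 3 within 587 nt. Psmb1 also had 3 and ranked below these by summed lower fold. The summed lower fold was 275.5 in Prune2, 177.5 in Vti1a, 66.1 in Cdk17 and 47.0 in Ide, against 75.3 in Gm47283, 58.3 in Fbn1, 56.3 in Atxn2 and 53.3 in Dap. Among genes with 2 sites in the run it was 96.1 in Arid5b, 73.5 in Tmcc1 and 68.1 in Calu, so that by this sum Prune2 and Vti1a stood above all other genes and Cdk17 and Ide did not.

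**Figure D4:**
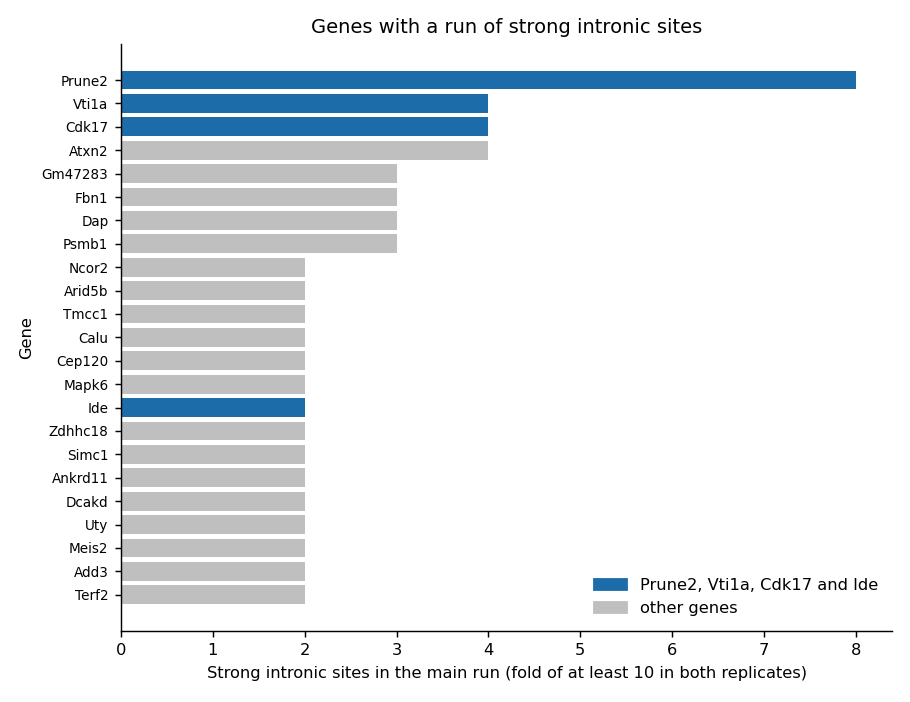
Number of strong intronic sites in the main run (horizontal axis) of each of the 23 genes with a run. Blue bars are Prune2, Vti1a, Cdk17 and Ide, grey bars other genes. Prune2 has 8 sites, Vti1a, Cdk17 and Atxn2 have 4, and Ide is among the 15 genes with 2.

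Paralogs and partners of the 4 genes held shared sites but no runs. Since runs stood in only 0.144% of genes with peaks in both replicates, nothing is read from their absence here. Of 36 such genes in the annotation, 35 had peaks in both replicates. A shared site was held by 22, against 38.7% of all genes with peaks in both replicates. A strong intronic site was held by 3, against 1.06% of all those genes. Vps45, a Sec1/Munc18 protein that acts with SNAREs of the endosome, had 10 shared sites with highest folds of 11.4 in replicate 1 and 12.9 in replicate 2. Cdk14, a kinase related to Cdk17, had 18, with 33.5 and 19.1, over a gene of 616.9 kb. Ccnyl1, a cyclin related to the cyclin Y that activates this kinase family, had 5, with 32.0 and 16.6. Stx8, an endosomal SNARE, had 8 shared sites and the neutral endopeptidase Mme, like Ide a peptidase that cleaves amyloid beta, had 7, with folds of at most 2.93. Among the closest relatives, the PCTAIRE kinase Cdk18 had 2 shared sites with folds of up to 7.20 in replicate 1 and 2.85 in replicate 2. Cdk16, of the same family, had 1, in an exon, with 5.44 and 3.92. Prune1, Nrd1 and Pitrm1 had 1 shared site each, with folds of at most 2.84, and Vti1b had 11 and 7 peaks and 0 shared sites.

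All 65 shared sites of the 4 genes are rows of the deposited count table. Its 8 library columns could not be matched to the labels of any sample, so no count could be given to a sample, and the change of these sites in Mettl3 knockout cells was not analysed here. For the same reason the level of each intron in input was not set beside its folds, and the part that RNA abundance has in these runs was not tested.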

How the data were processed

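The members and gene lists were chosen with earlier results of these data known. deepTools 3.2.1, HOMER 4.11.1, bedtools 2.25.0, Novoalign 3.09.00, MACS2 2.1.1.20160309 and the mm10 build are named, without settings, per the submitters' processing notes. Peak lists as deposited were called per library by the authors and hold a score, a fold (a ratio over background) and a −log10 p for each peak. Whether input served as control is stated in none of the sources used here. Repeated lines were removed, 654978 and 581790 lines leaving 387749 and 344700 peaks; each Vti1a peak stood 3 times, those of the other genes 1 time. In the deposited shared list each pair overlaps by at least 50% of the replicate 2 peak, which sets its position here. Peaks were placed by midpoint on the GENCODE M21 basic set, and introns numbered on the principal transcript (Prune2-201, Vti1a-201, Cdk17-201, Ide-201). Named were the sites of each run, the strongest outside it, exonic shared sites, and the 4 other genes with most sites in a run. Shares carry Wilson 95% intervals. The 8 library columns of the count table (featureCounts 1.6.3 per its file header) and the 8 of its summary match no label and were not used, so the planned knockout tests were not run. No genome was used, and sequence came from GENCODE M21 transcripts. The code for runs and overlaps was tested on simulated data. Computed with pandas 2.3.3, scipy 1.17.1, numpy 2.4.6 and matplotlib 3.10.9 under Python 3.11.15.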

Additional observations from a re-analysis of the deposited data

How the results depend on the processing

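The runs of Prune2 and Vti1a held under each alternative tried (folds of 5 or 20, gaps of 2 or 10 kb, the comprehensive gene set, either replicate alone), except that at a fold of 20 Prune2 kept 5 sites. Those of Cdk17 and Ide depended on the limits. At a fold of 5 the Cdk17 run held 7 sites over 2399 nt, and at 20 it held 0. The Ide run was lost (0 sites) with gaps of at most 2 kb and, in an alternative chosen after seeing the data, with the comprehensive gene set, in which 1 of its sites is exonic. From 1 library each, runs held 6 to 8 sites in Prune2 (2779 to 2813 nt), 4 and 4 in Vti1a (779 to 789), 5 to 7 in Cdk17 (1366 to 2406) and 2 and 2 in Ide (3135 to 3275). Shared sites at a −log10 p of at least 5 in both were 13 in Prune2 and 5 in Vti1a. With any overlap Vti1a had 37, and with 50% of both peaks covered Ide had 4. With no sharing asked, counts ran from 232 to 292 in Prune2, 300 to 344 in Vti1a, 40 to 42 in Cdk17 and 30 to 60 in Ide. No paired analysis was possible because the columns of the count table carry no sample's label, and the planned fits on it were not run. The depth of the libraries is unknown, so how far it limits the weak peaks cannot be stated.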

Other observations

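Other shared sites that annotated transcripts cover were read in the same way, over 100 nt around the midpoint. A stretch of at least 15 nt stood at least 2 times in 4 of 23 strong sites and in 103 of 1926 others; the Ide site, with a stretch of 33 nt, is among the 4. The length of 15 nt was chosen after the Ide repeat had been seen, no test was made, and the remaining 17 strong sites of Prune2, Vti1a, Cdk17 and Ide lie where no transcript covers the intron.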
